A study of Mus musculus with 13 samples.

Results

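Chemokines are small secreted proteins that guide migrating cells. They act through G protein-coupled receptors on the cells that respond, and they are grouped as CXC, CC and CX3C chemokines by the spacing of conserved cysteines. Many of their genes are induced through NF-kB or interferon signalling, and in melanoma, as in other tumours, they are known for drawing neutrophils, monocytes and T cells. The genes described here are the 10 chemokine genes Cxcl1, Cxcl5, Cxcl10, Cxcl12, Cxcl16, Ccl2, Ccl5, Ccl7, Ccl20 and Cx3cl1, taken by name. They were chosen with earlier results of these data known. They are 10 of 35498 genes with a level in the data, and 7 of the 10 were among the 13044 genes that passed the filter on low counts. Cxcl5, Cxcl16 and Ccl20 did not pass and were not tested.

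The study sequenced mRNA from mouse melanoma cell lines grown in vitro in which soluble adenylyl cyclase (sAC), a source of cyclic AMP inside the cell, is directed to a chosen compartment. The lines titled NLS were labelled with no sAC compartment at t0 (no doxycycline) and with a nuclear one at t6 and t48 (6 h and 48 h of doxycycline). There were 3 libraries at each time, from cell line numbers 6, 7 and 16. The lines titled LacZ, numbers 10 and 12, gave 2 libraries at t0, without doxycycline, and 2 at t48, with 48 h of doxycycline. Both constructs thus received doxycycline, the drug that switches tetracycline-controlled genes. The LacZ t48 libraries also carry the nuclear label, against their titles, and were kept as LacZ. The labels do not give the promoter, the parental line or whether a line is a clone, nor whether libraries came from separate cultures. Each library of a group has another cell line number, so p-values between groups measure the spread between libraries of different lines. P-values between lines, or with the line in the model, measure the spread within a line after the time label is taken out. That spread may be technical.

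Totals were 18512887 to 22584628 estimated reads a library. Adcy10, the gene that encodes sAC, checked the labels and followed the cell line rather than the time label. It lay at 339 to 371 CPM (reads scaled to a common library total) in the 3 libraries of line 6, at 181 to 200 CPM in those of line 7, at 0.671 to 1.22 CPM in those of line 16, and at no more than 0.167 CPM in the 4 LacZ libraries. The labels do not say whether the directed sAC is matched by the mouse Adcy10 transcripts, so these levels may not show its induction. Groups are therefore called by their labels, and results that rest on the NLS libraries are also given without line 16 where this changes a call. Pigment markers were scarce for a melanoma line: the 7 melanocyte markers together made 3.24 to 5.86 CPM, Mitf alone 2.76 to 5.37 CPM, and Tyrp1 was 0 in all 13 libraries. The 8 leukocyte markers summed to 5.99 to 15.1 CPM, of which the lysosomal gene Cd68 made 5.64 to 14.1 CPM, and Ptprc, which marks all leukocytes, was at or below 0.0512 CPM.

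The sequence before the start of a chemokine gene can hold sites for the factors that induce it, so the windows of 3 members whose levels changed with time are shown. They are the 250 bases before the RefSeq start on build GRCm38.p6, read 5′ to 3′ on the gene's own strand. RefSeq windows were at hand for 5 of the 10 members. Capitals mark every match to 5 short motifs searched on both strands. These are an NF-kB core written GGGNNNNNCC, the AP-1 site TGANTCA and the cyclic AMP response element half-site TGACG. The others are the interferon-stimulated response element core GAAANNGAAA and the TATA box TATAAA. Of 32851 RefSeq windows of 300 bases (250 before and 50 after the start), 50.8% hold the NF-kB core, 7.81% the AP-1 site, 20.8% the half-site, 3.44% the interferon element and 13.6% the TATA box.

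Cxcl10, chr5:92348890-92349139, minus strand: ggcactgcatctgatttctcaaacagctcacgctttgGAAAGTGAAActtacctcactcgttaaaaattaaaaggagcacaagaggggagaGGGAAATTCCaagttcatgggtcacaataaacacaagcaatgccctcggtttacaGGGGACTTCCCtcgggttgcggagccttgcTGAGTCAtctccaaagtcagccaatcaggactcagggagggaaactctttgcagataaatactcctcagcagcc
Cxcl1, chr5:90890995-90891244, plus strand: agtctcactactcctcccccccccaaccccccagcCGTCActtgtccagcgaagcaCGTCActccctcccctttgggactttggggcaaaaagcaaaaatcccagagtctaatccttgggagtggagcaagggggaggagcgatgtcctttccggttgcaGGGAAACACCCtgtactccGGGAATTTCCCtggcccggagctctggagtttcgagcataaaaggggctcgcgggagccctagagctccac
Cxcl12, chr6:117168285-117168534, plus strand: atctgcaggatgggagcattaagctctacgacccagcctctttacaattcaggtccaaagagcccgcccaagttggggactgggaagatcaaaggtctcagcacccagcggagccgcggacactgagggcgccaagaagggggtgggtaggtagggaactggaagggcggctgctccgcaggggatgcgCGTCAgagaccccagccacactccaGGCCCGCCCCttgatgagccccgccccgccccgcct

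Positions give the first base of a match, with -1 next to the start. The Cxcl10 window holds the NF-kB core at -159 and again at -104, where matches overlap by all but 1 base. It also holds the AP-1 site at -74, which matches on both strands, and the interferon element at -213. The Cxcl1 window holds the NF-kB core at -90 and -71, each overlapping a match on the opposite strand that is shifted by 1 base, and the half-site on the opposite strand at -215 and -194. The Cxcl12 window has the NF-kB core at -36 and the half-site at -61, both on the opposite strand. The Cx3cl1 window is not printed, because the annotated start of its main transcript lies 171 bases before the RefSeq start. That window matched the TATA box alone of the 5 motifs, and the Ccl20 window matched the NF-kB core alone. A match is a description of letters, and no binding was measured.

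On GRCm38, Cxcl5 (chr5:90759360-90761624) and Cxcl1 (chr5:90891241-90893115) lie on the plus strand of chromosome 5, with Cxcl10 (chr5:92346638-92348889) further along on the minus strand. Cxcl12 is at chr6:117168535-117181367, Cx3cl1 at chr8:94772009-94782427 and Ccl20 at chr1:83116766-83119167, all on the plus strand. Cxcl16 (chr11:70453983-70459984) and Ccl5 (chr11:83525778-83530518) are on the minus strand of chromosome 11. All 10 are annotated as protein coding.

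Levels of different genes were compared per length, as TPM (reads divided by transcript length and scaled to a common total). Ccl7 and Ccl2, both attractants of monocytes, lie next to each other on chromosome 11 on the plus strand, Ccl2 at chr11:82035571-82037453 and Ccl7 at chr11:82045712-82047525, 8258 bases apart. Ccl7 was the highest of the 10 genes in all 9 NLS libraries, with a mean of 213 ± 47 TPM, against 78.9 ± 38.0 TPM over the 4 LacZ libraries (SD, n = 9 and 4, as in the following means). In all 4 LacZ libraries the highest was Cxcl12, the ligand of Cxcr4 that holds stem cells and leukocytes in their niches. Its mean was 77.4 ± 26.1 TPM over the NLS libraries and 156 ± 28 TPM over the LacZ libraries. Ccl2 was in second place in all 13 libraries, at 126 to 224 TPM in NLS and 107 to 153 TPM in LacZ. The ranges of Ccl7 and Ccl2 overlap within the NLS lines, so their order rests on each library's own pair of values.

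The others followed at lower levels, and their order changed between libraries. Cxcl1, a neutrophil attractant, averaged 40.4 ± 20.6 TPM in NLS and 18.7 ± 5.2 TPM in LacZ. Ccl5, which attracts T cells, averaged 34.2 ± 16.4 TPM in NLS and 45.4 ± 9.6 TPM in LacZ. Cx3cl1, a chemokine anchored in the membrane on a mucin stalk, averaged 33.3 ± 13 TPM in NLS and 41.0 ± 5.8 TPM in LacZ. Cxcl10, an interferon-inducible ligand of Cxcr3, averaged 17.2 ± 8.0 TPM in NLS and 26.0 ± 6.2 TPM in LacZ. The NLS ranges of these 4 genes overlap each other, from 16.0 to 77.9 TPM for Cxcl1 and from 10.5 to 30.6 TPM for Cxcl10.

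**Figure D1:**
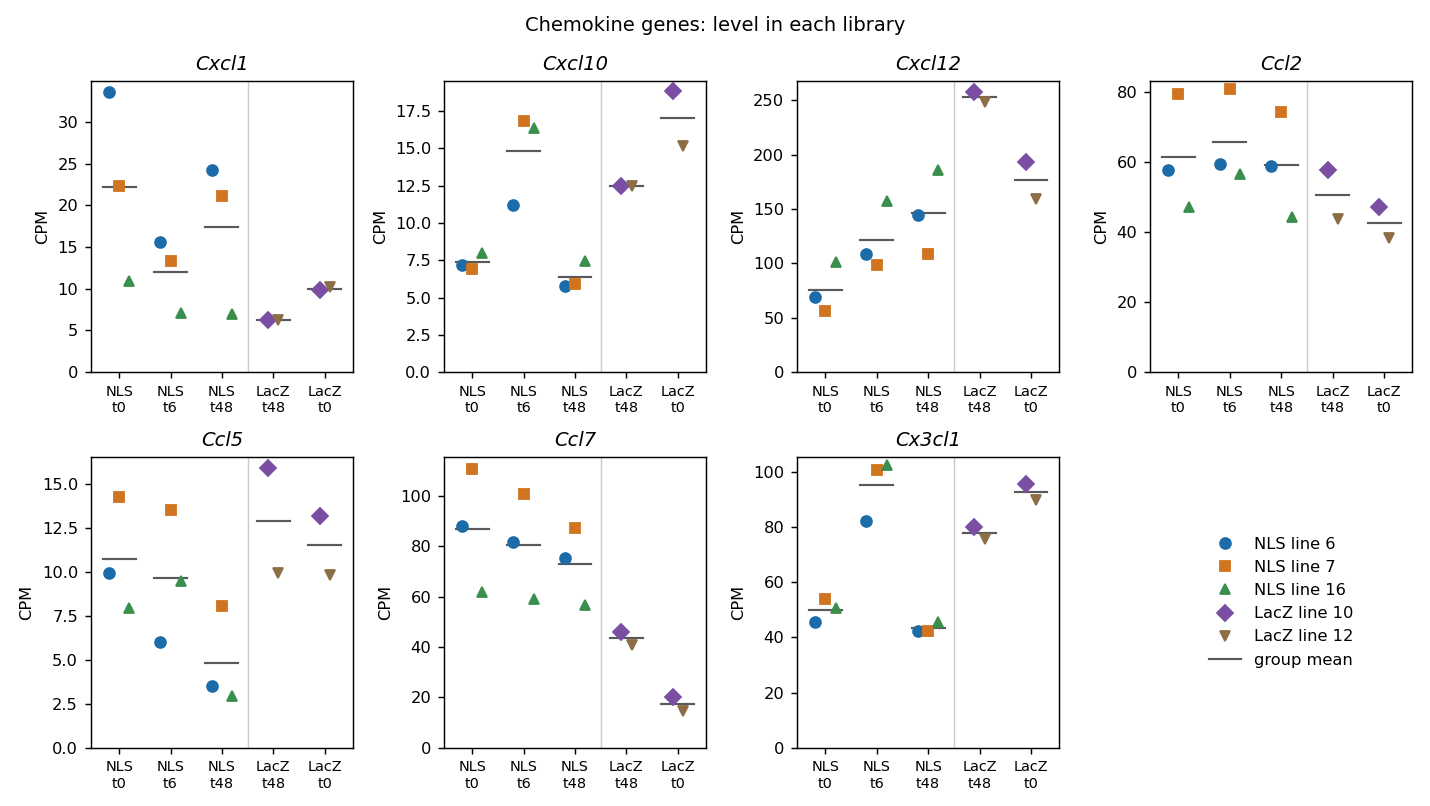
CPM on a linear axis from 0 in each of the 13 libraries for the 7 measurable chemokine genes, by construct and time label, with 1 symbol per cell line and a bar for the group mean. Cxcl10 and Cx3cl1 stand higher at NLS t6 than at NLS t0 and NLS t48, and Ccl7 is lower in LacZ than in NLS libraries.

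The remaining 3 genes were close to absent. Cxcl5, a ligand of Cxcr2 like Cxcl1, had 0 to 2 reads a library, and Ccl20, the ligand of Ccr6, had 3 reads over all 13 libraries. Cxcl16, a transmembrane chemokine that binds Cxcr6, had 1 to 7 reads in each of the 9 NLS libraries, 41 in all, and 0 reads in each of the 4 LacZ libraries. A count of 0 allows up to 3 reads a library, counting error only, so at this depth no fold was given for them. Without the filter on low counts all 10 genes were tested, and Cxcl16 passed as higher in NLS than in LacZ at t0 (edgeR adjusted p = 0.0486) and at t48 (0.011), while Cxcl5 and Ccl20 passed in no comparison. In bulk RNA fewer cells of a type and less RNA per cell cannot be told apart, for these genes and for those below.

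At NLS t6 against NLS t0, Cxcl10 and Cx3cl1 were both about doubled on the fitted scale, while the monocyte attractants Ccl2 and Ccl7 had log2 fold changes of 0.10 and -0.11 and did not pass. Cxcl10 had 11.2, 16.9 and 16.4 CPM in lines 6, 7 and 16 at NLS t6, against 7.21, 6.94 and 7.95 CPM at NLS t0. Every t6 library was above every t0 library. The log2 fold change was 1.01 ± 0.15 (SE, n = 3 each, edgeR adjusted p = 0.000521), and lines 6, 7 and 16 had ratios of 1.56, 2.43 and 2.06. Cx3cl1 had 82.3, 101 and 103 CPM at NLS t6, against 45.7, 53.9 and 50.6 CPM at NLS t0. Its groups also did not overlap, and its log2 fold change was 0.93 ± 0.08 (SE, edgeR adjusted p = 6.74e-06). The share of all genes without overlap was not counted, in this or the other comparisons of time labels. The other 5 members did not pass. Thus 2 of 7 members passed in the group-mean fit, both higher, where 20.8% of all 13044 genes passed, 11.6% higher and 9.23% lower. The members' median log2 fold change was 0.10, and that of all genes was -0.0026.

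Libraries of the same NLS line deviated together from the group means, at r = 0.30 to 0.39 in lines 7 and 16. In line 6 this was weaker, at 0.0770 to 0.239, beside up to 0.0680 between different NLS lines. With the cell line number as a block 4 of 7 members passed, where 34.7% of all genes did. Cxcl12 was added with a log2 fold change of 0.70 (blocked edgeR adjusted p = 1.44e-07). It had 108, 98.9 and 157 CPM in lines 6, 7 and 16 at NLS t6, against 69.0, 56.0 and 101 CPM at NLS t0. The groups overlap, but each line was higher at t6, by 1.56 to 1.77 times. Cxcl1 was added as a decrease, with a log2 fold change of -0.85 (blocked edgeR adjusted p = 5.12e-05). Its level was 15.5, 13.3 and 7.07 CPM at NLS t6, against 33.5, 22.3 and 10.9 CPM at NLS t0, lower at t6 in each of the 3 lines. Without line 16 both also passed in the group-mean fit, Cxcl12 at an edgeR adjusted p of 0.0204 and Cxcl1 at 0.00674, and Cxcl12 passed without the t0 library of line 16 alone (0.0436).

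At NLS t48 against NLS t6, Cxcl10 and Cx3cl1 fell. Cxcl10 had 5.79, 5.91 and 7.43 CPM at NLS t48, a log2 fold change of -1.22 ± 0.16 against t6 (SE, edgeR adjusted p = 6.78e-05). Cx3cl1 had 42.5, 42.2 and 45.5 CPM at NLS t48, a log2 fold change of -1.13 ± 0.09 (SE, edgeR adjusted p = 5.60e-07). For both genes every t48 library lay below every t6 library, and the share of all genes without overlap was not counted. Of 7 members, 2 passed where 28.2% of all genes did, 14.6% higher and 13.6% lower. The cell line block raised this to 6 of 7 members and 41.2% of all genes. The 4 added by the block were Cxcl1 (log2 0.49) and Cxcl12 (log2 0.27), higher, and Ccl2 (log2 -0.16) and Ccl5 (log2 -1.03), lower. In the group-mean fit Cxcl1 also passed without line 16 (log2 0.65, edgeR adjusted p = 0.0245), and Ccl5 without line 7 (0.0206) or its t48 library (0.0198). The members' median was -0.15 and that of all genes 0.0012.

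At NLS t48 against NLS t0, Cxcl12 was the only member of 7 past the threshold in the group-mean fit, where 26.1% of all genes passed, 14.8% higher and 11.3% lower. It had 144, 109 and 186 CPM in lines 6, 7 and 16 at NLS t48, above all of its t0 values. The log2 fold change was 0.96 ± 0.27 (SE, n = 3 each, edgeR adjusted p = 0.0305), and each line was higher by 1.84 to 2.09 times. The call was lost on leaving out line 6 (0.194), line 7 (0.0605), the t0 library of line 6 (0.0914) or 7 (0.0973), or the t48 library of line 6 (0.0700) or 16 (0.102), without the filter on low counts (0.0670), or with only the libraries compared (0.0725), all edgeR adjusted p-values. With the block its log2 fold change was 0.97 (edgeR adjusted p = 1.78e-09).

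With the block 5 of 7 members passed between NLS t48 and NLS t0, against 39.8% of all genes. The 4 added were lower at t48. Ccl5 had 3.53, 8.04 and 2.92 CPM at NLS t48, against 9.96, 14.3 and 7.95 CPM at NLS t0, a log2 fold change of -1.19 (blocked edgeR adjusted p = 0.00105). It was lower in each line, at 0.355 to 0.563 times the t0 level, and line 7 at t48 overlapped the t0 group. Leaving out line 7 (edgeR adjusted p = 0.0113) or its t48 library (0.0147) brought Ccl5 past the threshold in the group-mean fit too, and DESeq2 called it with every library (log2 -1.15, adjusted p = 0.0474). Without the filter on low counts Cx3cl1 passed as lower (log2 -0.22, edgeR adjusted p = 0.04999). The other additions were small, Cxcl1 at -0.36, Ccl7 at -0.24 and Cx3cl1 at -0.21 on the log2 scale. Cxcl10 and Ccl2 did not pass under either fit. The members' median was -0.21 and that of all genes -0.0066.

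**Figure D2:**
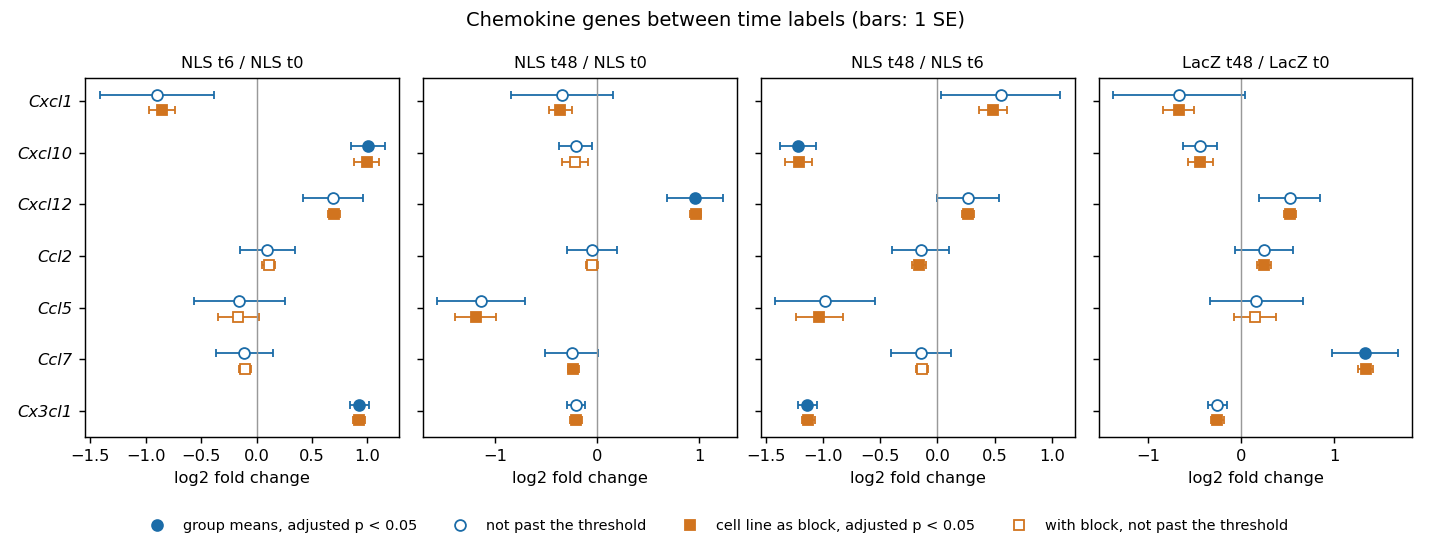
Log2 fold change with 1 SE of the 7 measurable chemokine genes between time labels. Circles are the fit on group means, squares the fit with the cell line number as a block, and filled symbols passed an adjusted p of 0.05. The 2 fits give nearly the same fold changes, from -1.22 for Cxcl10 at NLS t48 over t6 to 1.33 for Ccl7 in LacZ, while the bars are shorter with the block.

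The LacZ lines received doxycycline for 48 h as well, and there Ccl7 rose. It had 46.1 and 40.9 CPM in lines 10 and 12 at LacZ t48, against 20.1 and 14.6 CPM at LacZ t0, with no overlap. The log2 fold change was 1.33 ± 0.35 (SE, n = 2 each, edgeR adjusted p = 0.0296). It was 1 of 7 members to pass, where 18.5% of all genes did, 8.68% higher and 9.87% lower. Leaving out any LacZ library or line ended the call, with edgeR adjusted p-values of 0.0766 without the t0 library of line 10, 0.162 without that of line 12, 0.124 without the t48 library of line 10, 0.0807 without that of line 12, 0.194 without line 10 and 0.244 without line 12. Without the filter on low counts it was 0.0644. With the block the log2 fold change was 1.34 (edgeR adjusted p = 2.84e-09). Cxcl1, Cxcl10, Cxcl12 and Cx3cl1 did not overlap between LacZ t48 and LacZ t0 either. The share of all genes without overlap was not counted there.

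With the block 6 of 7 members passed in LacZ, against 33% of all genes. Libraries of the same LacZ line barely deviated together from the group means (r = 0.0284). The blocked fit took its spread from all 13 libraries, those of NLS included. Cxcl12 was higher, at 258 and 249 CPM in LacZ t48 and 193 and 159 CPM in LacZ t0 (blocked log2 0.53), and so was Ccl2 (blocked log2 0.24). Cxcl1 was lower, at 6.28 and 6.29 CPM in LacZ t48 and 9.81 and 10.2 CPM in LacZ t0 (blocked log2 -0.67). Cxcl10 (blocked log2 -0.44) and Cx3cl1 (blocked log2 -0.25) were also lower, and Ccl5 did not pass. The members' median in the group-mean fit was 0.16 and that of all genes 0.0011. No LacZ library at t6 was analysed here, so the NLS t6 values have no counterpart under the same time of doxycycline.

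The difference between the NLS and LacZ changes from t0 to t48 was tested directly as an interaction, and 1 of 7 members passed, where 23.3% of all genes did, 12.1% higher and 11.2% lower. This was Ccl7, at -1.58 ± 0.44 on the log2 scale (SE, edgeR adjusted p = 0.0303). In NLS lines Ccl7 had 75.3, 87.1 and 56.7 CPM at t48, against 87.9, 111 and 61.8 CPM at t0, lower in all 3 lines, while both LacZ lines were higher at t48. It passed without line 16 (edgeR adjusted p = 0.00314) but was lost in 11 of 15 leave-out fits. These were the fits without line 6 (0.111), line 10 (0.125) or line 12 (0.167), without the NLS t0 library of line 6 (0.0514) or 7 (0.0543), without the NLS t48 library of line 6 (0.0511) or 16 (0.0510), and without the LacZ library of line 10 at t0 (0.0538) or t48 (0.0916) or of line 12 at t0 (0.115) or t48 (0.0606). Without the filter on low counts it was also lost (0.0626). Ccl5 passed without line 7 (0.0227) or its NLS t48 library (0.0398). With the block 4 of 7 members passed, against 37.4% of all genes. Ccl7 remained among them (blocked edgeR adjusted p = 1.61e-09), with Cxcl12 higher (blocked log2 0.44) and Ccl2 (blocked log2 -0.29) and Ccl5 (blocked log2 -1.34) lower. The members' median was 0.05 and that of all genes 0.02.

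**Figure D3:**
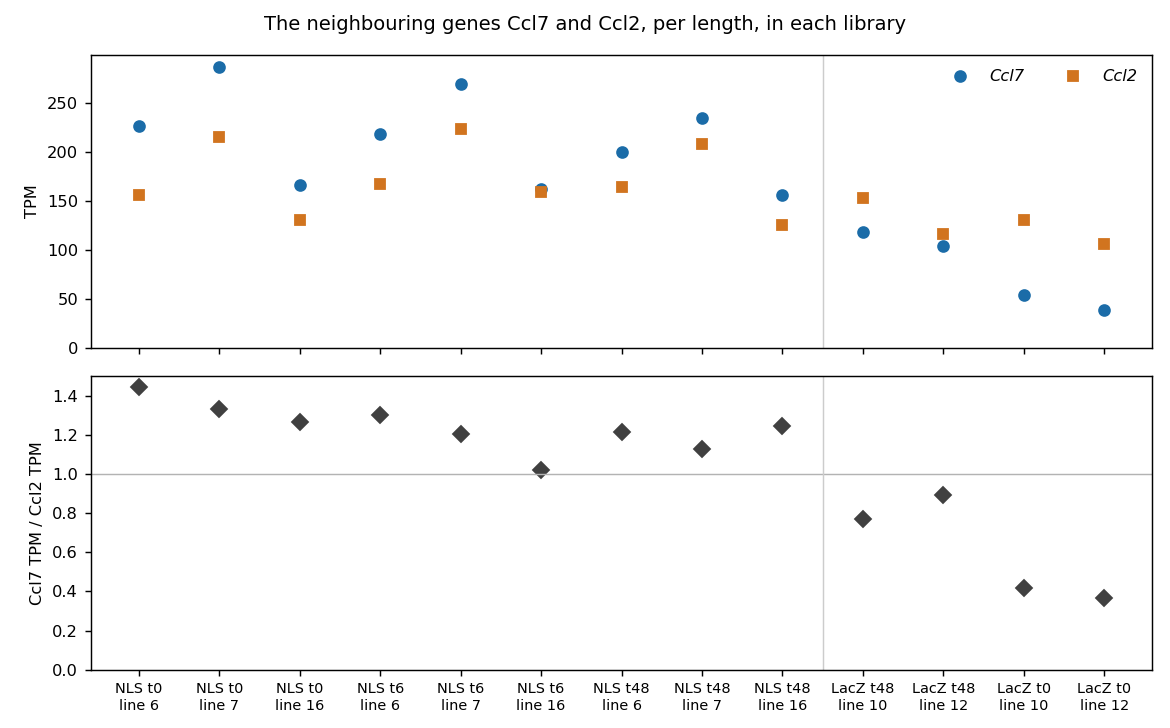
Ccl7 and Ccl2 in TPM (upper plot) and the ratio of their TPM values (lower plot, line at 1) in each of the 13 libraries. The ratio is 1.02 to 1.45 in the 9 NLS libraries and below 1 in all 4 LacZ libraries.

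Set against its neighbour Ccl2, Ccl7 changed its share within LacZ. The ratio of Ccl7 to Ccl2 in TPM was 1.02 to 1.45 over the 9 NLS libraries. In LacZ it was 0.771 and 0.894 at t48, against 0.417 and 0.367 at t0, so the LacZ t48 values lie between LacZ t0 and NLS. Both genes are annotated with no 31-base stretch that occurs in transcripts of another gene, which means that reads of that length do not mix them. Ccl2 itself had 57.6 and 43.7 CPM at LacZ t48, against 47.1 and 38.2 CPM at LacZ t0, and these ranges overlap.

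Between the constructs at t0, 4 of 7 members differed, where 43.5% of all genes did, 21.1% higher and 22.4% lower. Ccl7 was higher in NLS t0 than in LacZ t0, at the levels given above, with a log2 fold change of 2.33 ± 0.34 (SE, n = 3 and 2, edgeR adjusted p = 0.000427). The other 3 were lower in NLS t0. Cxcl10 had 6.94 to 7.95 CPM in NLS t0, against 18.9 and 15.2 CPM in LacZ t0, a log2 fold change of -1.21 ± 0.17 (SE, edgeR adjusted p = 5.96e-05). Cx3cl1 had 45.7 to 53.9 CPM in NLS t0, against 95.7 and 90.0 CPM in LacZ t0, a log2 fold change of -0.89 ± 0.09 (SE, edgeR adjusted p = 4.48e-06). Cxcl12 had a log2 fold change of -1.23 ± 0.30 (SE, edgeR adjusted p = 0.00906), a call lost without line 6 (0.0633), line 10 (0.0895) or the LacZ t0 library of line 10 (0.0633). None of the 4 overlapped between the constructs. The share of all genes without overlap between the constructs was not counted, at t0 or at t48. Without line 16 Cxcl1 was also called, higher in NLS t0 (log2 1.496, edgeR adjusted p = 8.69e-05). With line 16 it did not pass (edgeR adjusted p = 0.157), although its groups did not overlap.

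At t48, 3 of 7 members differed between NLS and LacZ, all lower in NLS, where 45.1% of all genes did, 23% higher and 22.2% lower. Cxcl10 had 5.79 to 7.43 CPM in NLS t48, against 12.5 CPM in both LacZ t48 libraries, a log2 fold change of -0.97 ± 0.17 (SE, edgeR adjusted p = 0.000435). Cx3cl1 had 42.2 to 45.5 CPM in NLS t48, against 80.1 and 75.5 CPM in LacZ t48, a log2 fold change of -0.84 ± 0.09 (SE, edgeR adjusted p = 6.95e-06). For both genes the NLS t6 level, 11.2 to 16.9 CPM for Cxcl10 and 82.3 to 103 CPM for Cx3cl1, lay near the LacZ level, a comparison across times that was not tested. Ccl5 had 2.92 to 8.04 CPM in NLS t48, against 15.9 and 9.93 CPM in LacZ t48, a log2 fold change of -1.40 ± 0.47 (SE, edgeR adjusted p = 0.0355). The Ccl5 call ended without line 6 (0.105), line 10 (0.251), line 12 (0.0573) or line 16 (0.138), and without the t48 library of line 6 (0.103), 10 (0.226) or 16 (0.0947), without the filter on low counts (0.0835), and with only the libraries compared (0.0846), all edgeR adjusted p-values. Cxcl1, Cxcl12 and Ccl7 did not overlap between NLS t48 and LacZ t48 either, but did not pass in edgeR (adjusted p = 0.0927, 0.0547 and 0.0730), while DESeq2 called all 3 (adjusted p = 0.0329, 0.0352 and 0.0349). With only the libraries compared, Ccl7 passed in edgeR as well (log2 0.75, adjusted p = 0.0224). Without line 16, 5 members were called, with Cxcl1 (log2 1.86) and Ccl7 (log2 0.91) higher and Cxcl12 (log2 -0.99) lower in NLS t48 beside Cxcl10 and Cx3cl1. These 3 were also called without the t48 library of line 16 alone (edgeR adjusted p = 0.0213, 0.0454 and 0.0302). The members' median was -0.10 at t0, where that of all genes was -0.0035, and -0.79 at t48, where that of all genes was 0.0061.

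Within the NLS construct, lines 6 and 7 stood above line 16 in Cxcl1. With the time label in the model, line 6 was above line 16 by 1.52 ± 0.12 on the log2 scale (SE, 3 libraries each, edgeR adjusted p = 5.85e-06) and line 7 above line 16 by 1.17 ± 0.12 (SE, edgeR adjusted p = 1.13e-05). It averaged 24.4 ± 9.0 CPM over the line 6 libraries, 18.9 ± 4.9 CPM over line 7 and 8.33 ± 2.24 CPM over line 16 (SD over the 3 time labels). Cxcl12 ran the other way. Its average was 107 ± 38 CPM for line 6, 87.9 ± 28.1 CPM for line 7 and 148 ± 43 CPM for line 16 (SD, n = 3). The log2 fold change was -0.48 for line 6 over line 16 (edgeR adjusted p = 0.000132) and -0.76 for line 7 over line 16 (edgeR adjusted p = 2.75e-07). Line 16 is also the NLS line with Adcy10 at 0.671 to 1.22 CPM, but 3 lines differ in more than Adcy10, and its part in these differences was not tested.

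Line 7 had the highest means of the NLS lines for Ccl7, Ccl2 and Ccl5. Ccl7 averaged 81.7 ± 6.3 CPM in line 6, 99.6 ± 11.9 CPM in line 7 and 59.2 ± 2.5 CPM in line 16 (SD, n = 3). Ccl2 averaged 58.6 ± 1.0 CPM in line 6, 78.2 ± 3.5 CPM in line 7 and 49.2 ± 6.4 CPM in line 16. Ccl5 averaged 6.51 ± 3.24 CPM in line 6, 12.0 ± 3.4 CPM in line 7 and 6.78 ± 3.42 CPM in line 16. Against line 16, line 7 was higher by 0.75 for Ccl7, 0.67 for Ccl2 and 0.86 for Ccl5 on the log2 scale (edgeR adjusted p = 1.10e-07, 7.13e-07 and 0.0112). Cxcl10, with line means of 8.08 to 10.6 CPM, did not pass between any pair of the NLS lines, though it passed between lines 6 and 16 without the t0 library of line 6 (edgeR adjusted p = 0.0426).

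Counted over the members, 4 of 7 differed between line 6 and line 16, where 2.26% of all genes did (0.882% higher and 1.38% lower). The calls were Cxcl1, Ccl7 (log2 0.46) and Ccl2 (log2 0.25), higher, and Cxcl12, lower. Between line 7 and line 16, 5 of 7 differed, where 22.6% of all genes did (11.8% higher and 10.8% lower). Between line 6 and line 7, 5 of 7 differed, where 11.1% of all genes did (5.19% higher and 5.9% lower), with Cxcl12 (log2 0.28) higher and Ccl2 (log2 -0.42), Ccl5 (log2 -0.92), Ccl7 (log2 -0.28) and Cx3cl1 (log2 -0.18) lower in line 6. Medians of the 7 members were -0.05, 0.67 and -0.22 in these 3 comparisons, and those of all genes 0.0062, -0.0034 and 0.0039. Ccl2 between lines 6 and 16 was lost without the t0 library of line 6 (0.0508) or 16 (0.217) or the t48 library of line 6 (0.289) or 16 (0.227). Ccl5 between lines 7 and 16 was lost without the t0 library of line 16 (0.0742). Between lines 6 and 7, Cxcl1 was gained without the t6 library of line 6 (0.0209) or the t48 library of line 7 (0.0171), and without the filter on low counts (log2 0.36, 0.0386). There, Cxcl12 (0.0550) and Ccl5 (0.0722) were lost without the t48 library of line 6, and Cx3cl1 without the t0 or t6 library of either line (0.113 to 0.266, all edgeR adjusted p-values). DESeq2 called neither Ccl2 between lines 6 and 16 (0.0820) nor Cx3cl1 between lines 6 and 7 (0.149). Without the time label in the model none of the calls between NLS lines held (edgeR adjusted p = 0.0613 to 1). Between the LacZ lines, 0 of 7 members passed in edgeR, where 0.123% of all genes did, with 4 members at an unadjusted p below 0.05 and 0 called by DESeq2. Without the filter on low counts Ccl2 passed there, lower in line 12 (log2 -0.34, edgeR adjusted p = 0.0207).

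**Figure D4:**
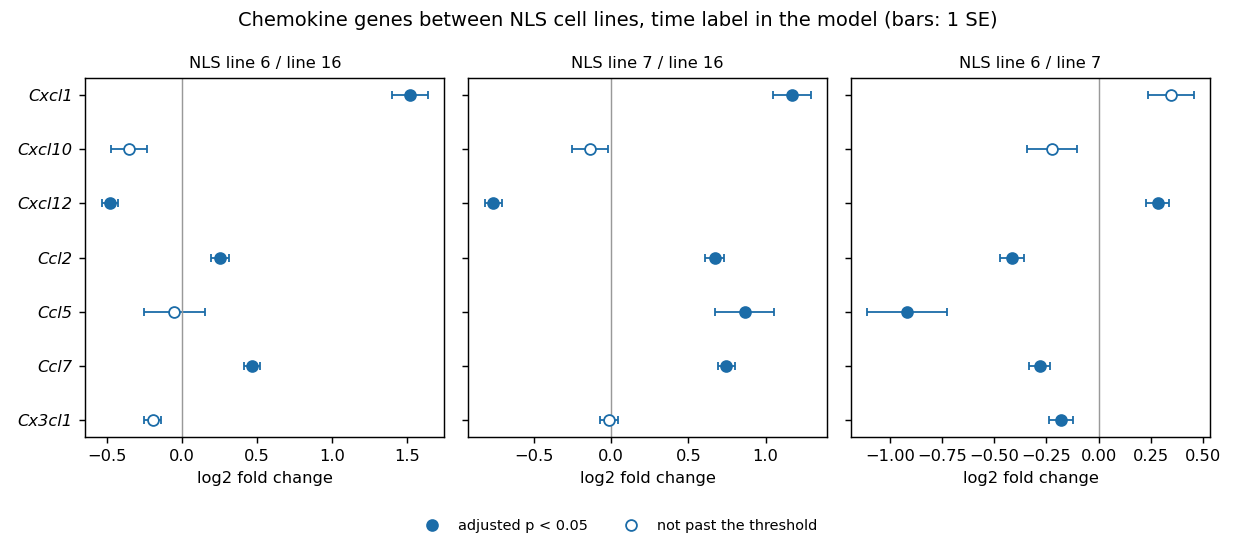
Log2 fold change with 1 SE of the 7 measurable chemokine genes between the NLS cell lines, with the time label in the model and 3 libraries a line. Filled circles passed an adjusted p of 0.05. Cxcl1 is higher in lines 6 and 7 than in line 16, by 1.52 and 1.17, and Cxcl12 is lower in both.

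Cxcl12 is made as several splice forms that share the receptor-binding part and differ at the end of the protein. The annotation has coding transcripts for 89, 93 and 119 residues, the alpha, beta and gamma forms, and a transcript that retains an intron. The alpha form held 57.0 to 70.7% of the Cxcl12 TPM in the 9 NLS libraries and 71.3 to 71.9% in the 4 LacZ libraries. At NLS t0 it held 70.7, 66.6 and 65.9% in lines 6, 7 and 16, at NLS t6 59.6, 61.4 and 58.4%, and at NLS t48 61.6, 62.7 and 57.0%. Each NLS line was thus lower at t6 and t48 than at t0. The beta form held 22.9, 24.4 and 24.0% at NLS t0, 30.9, 28.9 and 31.5% at NLS t6 and 28.2, 28.5 and 31.4% at NLS t48, against 21.4 to 22.8% in LacZ. These shares come from the division of shared reads by the authors' model, whose error is not in the values, so they are given without a test.

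**Figure D5:**
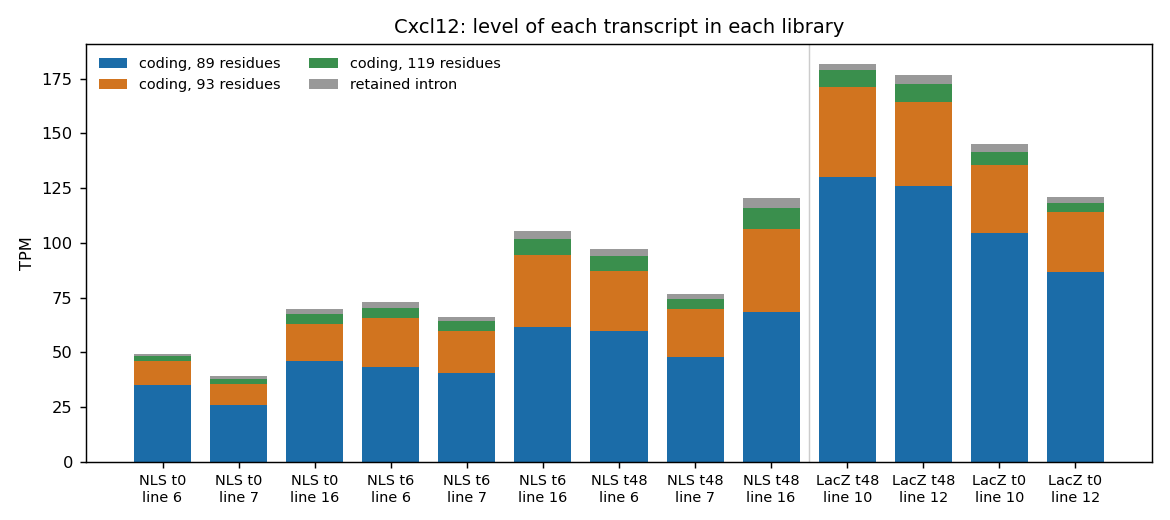
TPM of the 4 Cxcl12 transcripts in each library, stacked from 0. Each of the 5 lines has more Cxcl12 at t48, and the alpha form of 89 residues, which holds 57.0 to 71.9% of the TPM, is the largest part in all 13 libraries.

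Of the other genes, Cx3cl1 had the profile most like that of Cxcl10 over the 13 libraries, with a Pearson r of 0.97 on log2(CPM + 0.5) among 11003 genes at a mean of at least 1 CPM. Cxcl10 was likewise the gene most like Cx3cl1. The next for Cxcl10 were Pcdh7 (0.95) and Pcdh1 (0.95), and for Cx3cl1 Rap2b (0.96) and Nup210l (0.95). Ccl7 was most like Ppat (0.97), Chchd1 (0.97) and Pdgfra (0.97), and Cxcl12 most like Elk1 (0.95), Zyx (0.94) and St3gal1 (0.93). Ccl5 was most like Cdk2ap2 (0.95), Chek1 (0.93) and Ecm1 (0.92). Cxcl1 (Acbd5, Iqcc and Zfp958, 0.88 to 0.90) and Ccl2 (Haus3, Plpp3 and Gxylt1, 0.90 to 0.91) had somewhat lower values. The order depends on the measure. By Spearman's rho Cx3cl1 came in place 8 for Cxcl10 (rho 0.92) and Cxcl10 in place 11 for Cx3cl1, and for each of the 7 members 0 or 1 of the 3 genes named here stayed among the 3 most like. These libraries share lines, groups and scaling, so r is a description of likeness among these 13 profiles.

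Of 23 chemokine receptor genes, 3 passed the filter on low counts, Ackr3, Cxcr6 and Cxcr2, and 3 had no reads in any library. Cxcr3, Cxcr4, Ccr1, Ccr2, Ccr6 and Cx3cr1, receptors of Cxcl10, Cxcl12, CC members and Cx3cl1, had at most 0.283 CPM in any library. Ackr3, an atypical receptor that binds and clears Cxcl12, was well expressed. It had 204, 191 and 192 CPM in lines 6, 7 and 16 at NLS t48, against 176, 138 and 158 CPM at NLS t0, with no overlap. Its log2 fold change was 0.31 ± 0.08 (SE, edgeR adjusted p = 0.0130). In LacZ it fell, to 121 and 117 CPM at t48, against 167 and 156 CPM at t0 (log2 -0.43 ± 0.10, SE, edgeR adjusted p = 0.0101), and the interaction was 0.75 ± 0.13 (SE, edgeR adjusted p = 0.00123). Cxcl12 was thus higher at t48 in all 5 lines, while Ackr3 was higher at t48 in the 3 NLS lines and lower in the 2 LacZ lines.

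Cxcr6, the receptor of the nearly absent Cxcl16, had 5.24 to 32 CPM in the NLS libraries and 2.63 to 4.50 CPM in the LacZ libraries. It was higher in NLS t48 than in LacZ t48 (log2 1.81 ± 0.61, SE, edgeR adjusted p = 0.0371), and lower in line 7 than in line 16 (log2 -1.35 ± 0.11, SE, edgeR adjusted p = 3.24e-07). Cxcr2, the receptor of Cxcl1 and Cxcl5, had 1.01 to 3.49 CPM and fell in LacZ at t48 (log2 -1.32 ± 0.40, SE, edgeR adjusted p = 0.0329). At NLS t6 against t0, 0 of the 3 receptors passed in edgeR (1 at an unadjusted p below 0.05, and 0 by DESeq2), and 2 did with the block, Cxcr6 higher and Ackr3 lower, where 20.8% of all genes passed without the block and 34.7% with it. The median of the 3 was 0.31 at NLS t48 against t0, where that of all genes was -0.0066, and -0.43 in LacZ, where that of all genes was 0.0011.

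Other chemokine ligands were scarce too, with 5 of 28 passing the filter. The one that changed most was Ccl9, a CC chemokine of myeloid cells. It had 19.7 and 16.5 CPM at LacZ t48, against 5.52 and 5.29 CPM at LacZ t0, a log2 fold change of 1.74 ± 0.14 (SE, edgeR adjusted p = 5.45e-06). In NLS it had 10.5, 10.98 and 9.45 CPM at t48, against 13.4, 15.7 and 15.4 CPM at t0, a log2 fold change of -0.52 ± 0.11 (SE, edgeR adjusted p = 0.00286). Like Ccl7, Ccl9 was higher in NLS t0 than in LacZ t0 (log2 1.45 ± 0.13, SE, edgeR adjusted p = 1.12e-06), and its interaction was -2.26 ± 0.18 (SE, edgeR adjusted p = 1.86e-06). At t48 the values of Ccl9 lay lower in NLS than in LacZ, while those of Ccl7 lay higher. Ccl25, a chemokine of thymus and gut, lay at 10.9 to 15.6 CPM and passed in none of the 5 time comparisons. Ppbp (0.723 to 2.40 CPM), Ccl27a (0.870 to 2.12 CPM) and Cxcl9 (at most 0.8003 CPM) were low. Ppbp, a neutrophil attractant, had 0.723 and 1.33 CPM at LacZ t48, against 2.09 and 2.40 CPM at LacZ t0, and was called lower (log2 -1.12 ± 0.36, SE, edgeR adjusted p = 0.0479). DESeq2 called 0 of the 5 lower there. Cxcl9, a ligand of Cxcr3 like Cxcl10, was called higher in NLS t48 than in LacZ t48 (log2 1.72 ± 0.64, SE, edgeR adjusted p = 0.0414). DESeq2 called 0 of the 5 higher there, and edgeR called 23% of all genes higher. At NLS t6 against t0, 0 of the 5 passed in edgeR, with or without the block, or in DESeq2, and 0 had an unadjusted p below 0.05. Of all genes 20.8% passed in edgeR there, and 34.7% with the block. The median of the 5 was -0.16 and that of all genes -0.0026.

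Cx3cl1 is released from the membrane by the proteases Adam10 and Adam17, which were expressed throughout, at 108 to 161 CPM and 55.6 to 78.4 CPM. Both were lower at NLS t48 than at NLS t6, Adam10 with a log2 fold change of -0.28 ± 0.08 and Adam17 with one of -0.18 ± 0.06 (SE, edgeR adjusted p = 0.0192 and 0.0297). Of the 8 tested genes for shedding, cleavage and matrix binding of chemokines, 2 were higher and 1 lower at NLS t6 than at t0 (median 0.08), where 11.6% of all genes were higher and 9.23% lower. Sdc4, a heparan sulfate proteoglycan, and the membrane protease Mmp14 were higher (log2 0.37 and 0.31), and Mmp2, which cuts several chemokines, was lower (log2 -0.53). At NLS t48 against t6 the count was 1 higher and 3 lower (median -0.08), where 14.6% of all genes were higher and 13.6% lower, with Mmp2 higher (log2 0.70) and Sdc4 lower (log2 -0.48) beside both Adam genes. Dpp4, which trims Cxcl10 and Cxcl12, was 0 in all 13 libraries.

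Among 20 NF-kB subunits, inhibitors and adaptors, 4 were higher and 0 lower at NLS t6 than at NLS t0 in edgeR, as in DESeq2, with a median of 0.09 where that of all genes was -0.0026. The share of all genes called there was 20.8%, 11.6% higher and 9.23% lower. The unadjusted p was below 0.05 for 7 higher and 1 lower, and 8 were higher and 2 lower with the block, where 34.7% of all genes passed. The inhibitor Nfkbie was highest in rank, at 23.7, 25.4 and 20.8 CPM in lines 6, 7 and 16 at NLS t6, against 17.2, 14.5 and 15.2 CPM at NLS t0 (log2 0.58 ± 0.10, SE, edgeR adjusted p = 0.00172). The subunit Nfkb2 (log2 0.30) and the kinase Map3k14 (log2 0.29) were higher as well. At NLS t48 against NLS t6, 0 were higher and 9 lower (median -0.10), where 14.6% of all genes were higher and 13.6% lower. Among the lower ones were Nfkbie (log2 -1.21), the adaptor Traf1 (log2 -1.07) and Nfkb2 (log2 -0.58). At NLS t48 against NLS t0, 1 was higher, Bcl3 (log2 0.64), and 5 were lower, led by Traf1 (log2 -1.04), Nfkbie (log2 -0.63) and Nfkb1 (log2 -0.25), with a median of -0.08, where 14.8% of all genes were higher and 11.3% lower. In LacZ 0 were higher and 2 lower at t48 (Cyld at log2 -0.43 and Map3k14 at log2 -0.36, median -0.05), where 8.68% of all genes were higher and 9.87% lower.

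In the interferon arm, which can induce Cxcl10, 0 of 16 tested genes passed at NLS t6 in edgeR or DESeq2, 1 had an unadjusted p below 0.05, and 1 passed with the block (median 0.10), where 20.8% of all genes passed, and 34.7% with the block. At NLS t48 against NLS t0, 0 were higher and 2 lower, the RNA sensors Ifih1 (log2 -1.17) and Rigi (log2 -0.29), and 7 were lower with the block (median -0.26). DESeq2 called 1 of the 16 lower there. Of all genes 14.8% were higher and 11.3% lower, and 39.8% passed with the block. At LacZ t48 against LacZ t0, 4 were higher and 0 lower, and 8 higher with the block (median 0.48), where 8.68% of all genes were higher and 9.87% lower, and 33% passed with the block. Isg15, an interferon-induced ubiquitin-like protein, had 18.3 and 22.5 CPM at LacZ t48, against 10.9 and 10.0 CPM at LacZ t0 (log2 0.96 ± 0.18, SE, edgeR adjusted p = 0.00272). The GTPase Gbp2 (log2 0.83) and the factor Irf1 (log2 0.31) were also higher. In the same group-mean fit Cxcl10 had a log2 fold change of -0.45 and did not pass (edgeR adjusted p = 0.107). It passed as lower with the block only (blocked log2 -0.44). At t48, 2 of the 16 were higher and 11 lower in NLS than in LacZ, with a median of -1.14 where that of all genes was 0.0061, 23% of them higher and 22.2% lower. Isg15 (log2 -1.73), Rsad2 (log2 -2.80) and Ifih1 (log2 -2.57) led the lower ones, and Irf1 (log2 0.39) and Irf3 (log2 0.34) were higher. At t0 the counts were 3 higher and 8 lower in NLS than in LacZ (median -0.44), where 21.1% of all genes were higher and 22.4% lower.

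Several cytokines that drive inflammation were at or near 0. Il1b had 0 reads in all 13 libraries, and Ifnb1, Tnf and Il6 had at most 0.0536, 0.235 and 0.706 CPM. Of 13 tested inflammatory cytokines and effectors, 4 were higher and 1 lower at NLS t6 than at NLS t0, and 6 higher and 2 lower with the block, with a median of 0.34. Of all genes 11.6% were higher and 9.23% lower there and 34.7% passed with the block, and the same shares apply to the regulators of mRNA decay and the upstream receptors at NLS t6. The protease Mmp9 (log2 2.61), the macrophage growth factor Csf1 (log2 0.42) and the prostaglandin synthase Ptgs2 (log2 0.81) were higher, and Nos2, the inducible nitric oxide synthase, was lower (log2 -1.71). DESeq2 called 5 of the 13 higher but did not call Nos2. Of 7 regulators of mRNA decay, 2 were higher and 0 lower at NLS t6 (Hnrnpd at log2 0.21 and Zfp36 at log2 0.44, median 0.13). At t48 Zfp36l1, which speeds decay of short-lived mRNAs, was higher in NLS (log2 0.77) and lower in LacZ (log2 -1.28) than at t0. Of 14 receptors and sensors upstream, 1 was higher at NLS t6 (Cgas, a DNA sensor, log2 0.26) and 2 were lower (Tlr4 at log2 -0.35 and Tlr3 at log2 -0.50, median 0.01), against 4 higher and 3 lower with the block. For the other counts of 0 in these lists, from NF-kB to mRNA decay, at most 1 gene had an unadjusted p below 0.05 in that direction, and DESeq2 called 0. At both times Sting1, the adaptor of Cgas, was lower in NLS than in LacZ, with log2 fold changes of -1.22 at t0 and -2.02 at t48.

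Cell type markers also moved with some labels, those of melanocytes and keratinocytes at sums of at most 5.86 and 3.40 CPM. The 8 leukocyte markers, 2 of them at 0 in all 13 libraries, summed to 11.8 to 12.9 CPM at NLS t0, 13.8 to 15.1 CPM at NLS t6, 8.18 to 9.46 CPM at NLS t48, and 8.29 to 9.45 CPM at LacZ t48 and 5.99 to 6.92 CPM at LacZ t0. This sum was highest at NLS t6, as were Cxcl10 and Cx3cl1 among the NLS labels. Cd68, which makes most of it, was lower at NLS t48 than at NLS t6 (log2 -0.83), and Ptprc and Cd3e stayed at or near 0. The 5 fibroblast markers summed to 6625 to 8103 CPM at NLS t0, 4976 to 6093 CPM at NLS t6 and 11480 to 12430 CPM at NLS t48, and to 4932 to 5271 CPM in LacZ. Col1a1 alone lay at 2555 to 6924 CPM in every library. The 7 melanocyte markers summed to 4.12 to 5.13 CPM at NLS t0, 5.74 to 5.86 CPM at NLS t6 and 3.24 to 4.36 CPM at NLS t48, also highest at t6 without overlap, and Mitf was lower at NLS t48 than at NLS t6 (log2 -0.64). The 5 keratinocyte markers ran the other way, at 1.34 to 1.51 CPM at NLS t0, 0.622 to 1.29 CPM at NLS t6 and 1.60 to 3.40 CPM at NLS t48, and lay at 0.278 to 0.649 CPM in LacZ. Among them Krt14 (log2 1.61) and Trp63 (log2 2.49) were higher at NLS t48 than at NLS t6, and Trp63 was lower at NLS t6 than at NLS t0 (log2 -2.61). The 5 endothelial markers summed to 2.18 to 4.27 CPM. The part of these genes in the chemokine results was not tested.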

How the data were processed

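Trizol RNA went into stranded mRNA libraries read from both ends, per the labels' protocols. The submitters' processing notes name Salmon 1.2.0 and GRCm38. The tables the authors deposited give each transcript an estimated count, which divides reads that fit several transcripts, and a TPM value. Its options and transcript set were not given in the sources used here. Of 116546 transcripts, 115977 (99.5%) were matched to a gene, and the rest held 0.121 to 0.165% of a library's reads and were left out. Estimated counts were summed to 35498 genes and rounded, and TPM values were summed. Stretches of 31 bases shared with transcripts of other genes made up 0% for 7 of the 10 chemokine genes, and 0.871% for Cxcl5, 0.539% for Ccl5 and 0.11% for Cxcl12.

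Tests over all genes used edgeR 4.0.16 under R 4.3.3 and its quasi-likelihood method (TMM, the edgeR filter on low counts, robust spread). All 13 libraries entered 1 fit with 5 group means, and comparisons of cell lines added line terms. P-values were adjusted by Benjamini-Hochberg over 13044 genes and called below 0.05. CPM uses TMM library sizes, and SE was derived from the test statistic. The fit was tested on simulated data first. Alternatives were DESeq2 1.42.0, other size factors, no filter, the cell line number as a replicate block, only the groups compared, line means without the time label, Spearman's rho for likeness, and leaving out each line or library. Labels give a cell line the same number at each time, so libraries are paired by it. Residuals around the group means correlated at r = 0.0770 to 0.393 over the 9 pairs of NLS libraries of 1 line, at -0.380 to 0.0680 over 18 pairs of different lines, and at 0.0284 over the 2 LacZ pairs. No 2 libraries of a group agreed within sampling noise (lowest chi-square per degree of freedom 7.11).

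The chemokine genes and the 13 lists of 171 other genes were chosen with earlier results of these data known. Named beside the chemokine genes are Adcy10, up to 3 higher and 3 lower members of a list with the smallest p, and the 3 genes most like each by Pearson r. Ackr3, Cxcr6, Adam10 and other list members with levels only were named after their values were seen. Intervals from a count of 0 cover counting error only. Promoter windows and motif shares come from RefSeq on GRCm38.p6.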

Additional observations from a re-analysis of the deposited data

Results flagged for a closer look

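The change of Ccl7 from t0 to t48 passed the interaction test between the constructs, a call that was lost in 11 of 15 leave-out fits and without the filter on low counts (edgeR adjusted p = 0.0626). The difference of the NLS change minus the LacZ change was -1.58 on the log2 scale (edgeR adjusted p = 0.0303), with Ccl7 lower at t48 in 3 of 3 NLS lines and higher in 2 of 2 LacZ lines. Groups hold 2 or 3 libraries, too few to look for a library far from the others.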

How the results depend on the processing

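The calls of Cxcl10 and Cx3cl1 at NLS t6 against t0, at NLS t48 against t6 and in NLS against LacZ at both times, and that of Ccl7 in NLS t0 against LacZ t0, held in every alternative run for them. The number of chemokine genes called moved as follows, from the counts given above. With the cell line number as a replicate block it was 4 at NLS t6 against t0, 5 at NLS t48 against t0, 6 at NLS t48 against t6, 6 in LacZ and 4 in the interaction, and it ended no call. DESeq2 called 2 at NLS t48 against t0, 6 in NLS t48 against LacZ t48, 3 between lines 6 and 16 and 4 between lines 6 and 7. Without the filter on low counts, with all 10 tested, 0 were called in LacZ t48 against t0, 0 in the interaction, 5 in NLS t0 against LacZ t0 (Cxcl16 added), 6 between lines 6 and 7 (Cxcl1 added) and 1 between the LacZ lines. The count stayed at 1 at NLS t48 against t0, with Cx3cl1 in place of Cxcl12, and at 3 in NLS t48 against LacZ t48, with Cxcl16 in place of Ccl5. With only the libraries compared, 0 were called at NLS t48 against t0 and 5 in LacZ, and Ccl7 took the place of Ccl5 among 3 in NLS t48 against LacZ t48. Other size factors (RLE) moved none of these counts. Without the time label 0 were called between lines 6 and 16, 7 and 16, and 6 and 7. Leaving out a library or line gave 2 to 4 at NLS t6 against t0, 0 to 2 at NLS t48 against t0, 2 to 3 at NLS t48 against t6, 0 in every LacZ case, 0 to 2 in the interaction, 3 to 5 in NLS t0 against LacZ t0, 2 to 5 in NLS t48 against LacZ t48, 3 to 4 between lines 6 and 16, 4 to 5 between lines 7 and 16, 3 to 6 between lines 6 and 7, and 0 between the LacZ lines. Where 1 library remained in a group it was assumed to vary like the others. Counts of all genes called ranged from 994 to 4527 at NLS t6 against t0 (2716 in the fit reported), 1592 to 5188 at NLS t48 against t0 (3402), 2034 to 5373 at NLS t48 against t6 (3673), 522 to 4308 in LacZ (2419), 1272 to 4875 in the interaction (3045), 3869 to 5687 in NLS t0 against LacZ t0 (5669), 4179 to 5966 in NLS t48 against LacZ t48 (5888), 1 to 583 between lines 6 and 16 (295), 9 to 2935 between lines 7 and 16 (2950), 0 to 1488 between lines 6 and 7 (1446), and 0 to 83 between the LacZ lines (16). The sign of 13 uncalled log2 fold changes turned on leaving out a library or line. At NLS t6 against t0 these were Ccl5 (-0.47 to 0.10), Ccl7 (-0.31 to 0.10) and Ccl2 (-0.082 to 0.32). At NLS t48 they were Cxcl1 (-0.68 to 0.068) and Ccl2 (-0.25 to 0.18) against t0, and Ccl2 (-0.35 to 0.030) and Ccl7 (-0.32 to 0.053) against t6. The others were Ccl5 in LacZ (-0.21 to 0.47), Cx3cl1 (-0.022 to 0.12) and Cxcl1 (-0.0038 to 0.74) in the interaction, Ccl5 in NLS t0 against LacZ t0 (-0.36 to 0.14), Ccl5 between lines 6 and 16 (-0.33 to 0.23), and Cx3cl1 between lines 7 and 16 (-0.052 to 0.0485). The cause was not tested. Depth limits Cxcl5, Cxcl16 and Ccl20, which had 0 to 7 reads a library.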
